A study of Mus musculus with 12 samples.

Results

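The cells described here are the oligodendrocyte precursors among striatal cells of wild type mice, taken with an enrichment for astrocytes at an early postnatal age and at 3 months. A cell was counted as a precursor when at least 3 of the 6 genes Pdgfra, Cspg4, C1ql1, Lhfpl3, Neu4 and Sox10 had a molecule (UMI, a unique molecular identifier, which counts 1 captured mRNA) and at most 1 of the 5 genes Mog, Opalin, Ermn, Cldn5 and Rgs5 did. The last 5 mark myelinating oligodendrocytes, vessel lining cells and pericytes. By this rule 132 of 3117 filtered cells were precursors, 69 and 11 of them in postnatal replicates 1 and 2, and 45 and 7 in 3m replicates 1 and 2. The values of the 6 rule genes chose the cells and are therefore given as a description, with no test.

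Oligodendrocyte precursors are the dividing glial cells from which the myelinating oligodendrocytes of the brain arise. They are recognised by the platelet-derived growth factor receptor alpha (Pdgfra) and the chondroitin sulphate proteoglycan NG2 (Cspg4), carry the lineage transcription factors Olig1, Olig2 and Sox10, receive synaptic input from neurons, and pass through a committed stage marked by the receptor Gpr17 before they make myelin. In the mouse striatum most myelin is laid down after birth, and precursors persist in the adult tissue, where they divide more slowly.

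The study followed the maturation of striatal astrocytes, and dissociated cells were enriched with magnetic beads for the astrocyte surface antigen ACSA2 before droplet sequencing, so the precursors are cells carried along by that enrichment and their share is not their share of the tissue. The labels give wild type animals of a mixed strain, whereas the study's methods name male C57BL/6Jax mice, 2 to 5 brains pooled per preparation and the subventricular zone cut away. The study's code names other libraries than these, so its methods may not describe the 4 libraries in every detail. There were 2 libraries in each age group, and no treatment was applied. The labels of each postnatal library name both day 3 and day 7, in opposite order in title and age tag, so both libraries stand as 1 postnatal group.

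Over the 4 libraries the table held between 7185335 and 11501049 UMIs, and the precursors held 725758 and 234887 UMIs in the postnatal libraries and 315000 and 47465 in the 3m libraries. The median precursor had 10559 and 15244 UMIs at the postnatal age and 6915 and 7849 UMIs at 3 months. Postnatal replicate 2 and 3m replicate 2 shared 95 cell barcodes, and 46 barcodes that held fewer UMIs than their copy were left out, none of which met the rule. 2 precursors of postnatal replicate 2 sat on a shared barcode. The summed levels of the postnatal precursors differed between replicates by more than counting noise (chi-square per degree of freedom 4.35), and those of the 3m precursors by little more than it (1.27), with only 47465 UMIs behind 3m replicate 2.

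The lineage factors Olig1 and Olig2, which the rule had not used, were found in most precursors, but not every other marker set the precursors apart. Olig1, the lineage transcription factor, had a UMI in 69 of 69, 11 of 11, 44 of 45 and 7 of 7 precursors in the order postnatal replicates 1 and 2 and 3m replicates 1 and 2, at 2122, 1622, 3457 and 3666 CPM (the gene's UMIs scaled to a common total of all UMIs of the summed cells). In the astroglia of the same libraries, cells with at least 4 of 6 astrocyte markers, Olig1 lay at 383, 305, 57.9 and 68.7 CPM. Olig2, its partner factor, had a UMI in 66 of 69, 11 of 11, 42 of 45 and 6 of 7 precursors. The summed level of 30 further precursor markers took 1.63%, 0.882%, 2.67% and 2.94% of precursor UMIs, against 0.990%, 1.06%, 0.553% and 0.618% in astroglia and 0.193% and 0.173% in the oligodendrocytes of the 3m libraries. In postnatal replicate 2 the precursors' share of these markers lay below that of its astroglia, so there the list as a whole did not set the precursors apart, although Olig1 did. Ptprz1 lay higher in the astroglia than in the precursors of both postnatal libraries. Vcan did so in postnatal replicate 2 only, and the levels of both are given below.

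Within the rule itself, Pdgfra stood at 905 and 502 CPM in the postnatal precursors and at 1854 and 2486 CPM in the 3m precursors. Neu4, a sialidase of the lineage, had a UMI in 28 of 69 and 0 of 11 postnatal precursors and in 40 of 45 and 6 of 7 precursors at 3 months. Of the 132 precursors, 61 carried all 6 rule genes, 42 carried 5, 17 carried 4 and 12 carried 3. The 12 cells just inside the threshold had a median of 3146 UMIs and held Olig1 at 1801 CPM. The 30 cells with 2 rule genes, just outside it, had a median of 14599 UMIs, held Olig1 at 706 CPM, and 18 of them had at least 4 of the 6 astrocyte markers.

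Markers of other cell types were low but present. The 6 astrocyte markers summed to 408, 685, 848 and 1159 CPM in the precursors against 4892, 4131, 12203 and 13771 CPM in astroglia, and 1 of the 6 was at 0 in each 3m sum. At least 4 astrocyte markers or at least 3 neuron markers were found in 7 of 69, 5 of 11, 9 of 45 and 3 of 7 precursors. The doublet caller Scrublet marked 1 precursor. The 6 neuron markers summed to 192, 128, 200 and 147 CPM, and the 6 markers of microglia to between 6.89 and 63.2 CPM, with 5 of the 6 at 0 in each library. 1 precursor of 3m replicate 1 carried at least 3 of the 6 oligodendrocyte markers, and results that rest on it are given with and without it.

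The share of precursors among filtered cells was 12.4% (69 of 555, exact 95% interval 9.80 to 15.5) in postnatal replicate 1 and 1.52% (11 of 723, 0.762 to 2.71) in postnatal replicate 2. It was 4.02% (45 of 1120, 2.95 to 5.34) in 3m replicate 1 and 0.974% (7 of 719, 0.392 to 2.00) in 3m replicate 2. The 2 ages overlapped, with 3m replicate 1 between the 2 postnatal libraries, and the 2 postnatal libraries lay further apart than the means of the 2 ages. The group means were 6.98% ± 7.72 (SD, n = 2) and 2.5% ± 2.15 (SD, n = 2), which differ by -4.48 percentage points (two-sided exact permutation p = 0.667). With 2 libraries against 2 the smallest p that this test can give is 0.33, and without postnatal replicate 1 the difference was 0.974 percentage points in the other direction. Intervals cover counting error only, and the share also moves with how many astrocytes and oligodendrocytes a preparation kept.

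**Figure D1:**
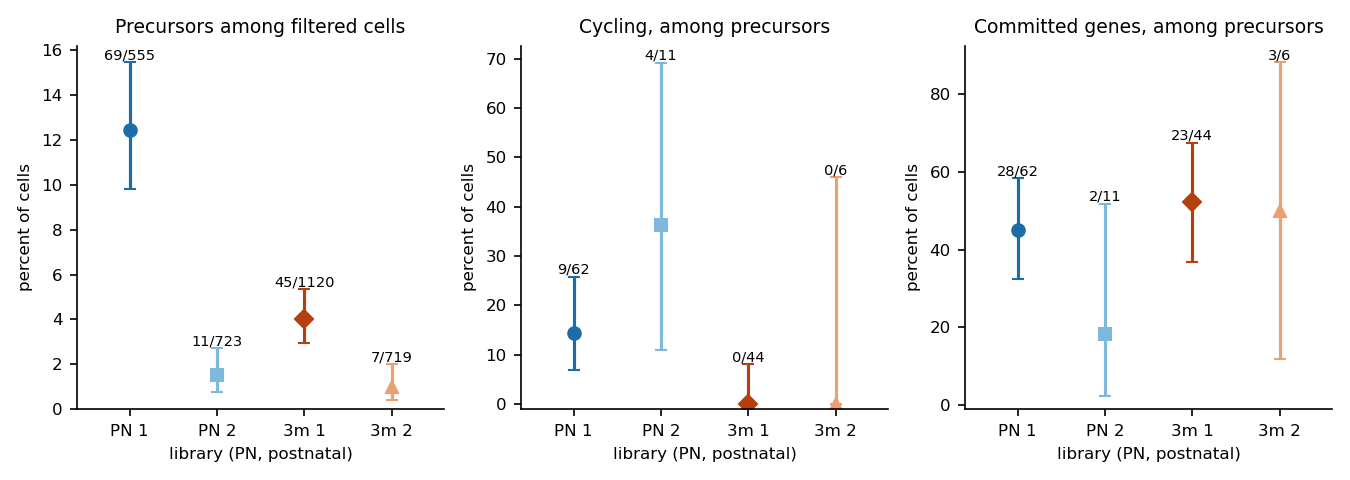
Share of precursors among filtered cells, and shares of cycling and of committed precursors after thinning to 2000 UMIs, in percent, for each of the 4 libraries, with exact 95% binomial intervals as bars. The precursor share ran from 12.4% to 0.974%, cycling cells were found in the postnatal libraries only, and the committed shares of the 4 libraries had overlapping intervals.

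Dividing precursors were seen in the postnatal libraries and in neither 3m library. A precursor was called cycling when, after thinning every cell to 2000 UMIs, it held at least 3 UMIs of 10 genes of mitosis (Mki67, Top2a, Cdk1, Birc5, Ccnb1, Ccnb2, Cenpf, Cdca8, Tpx2 and Nusap1). This held for 9 of 62 precursors (14.5%, exact 95% interval 6.86 to 25.8) in postnatal replicate 1 and for 4 of 11 (36.4%, 10.9 to 69.2) in postnatal replicate 2. It held for 0 of 44 in 3m replicate 1, where the exact interval reaches 8.04%, and for 0 of 6 in 3m replicate 2, where it reaches 45.9% (a limit of 3 cells would be 6.82% and 50%). The difference of the means was -25.4 percentage points, with the smallest p the design allows (exact permutation p = 0.33). Thinning left out 7, 0, 1 and 1 cells, and without it the counts were 14 of 69, 6 of 11, 0 of 45 and 0 of 7. In astroglia of the same libraries the thinned shares were 4.70%, 8.47%, 0.341% and 0.778%.

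The cycling molecules sat in few cells. The 10 genes gave 987 UMIs in postnatal replicate 1, of which the 5 richest cells held 810, and 636 UMIs in postnatal replicate 2, of which the 5 richest held 621. In 3m replicate 1 they gave 7 UMIs over 6 cells, with at most 2 in any cell, and in 3m replicate 2 none. As summed levels this was 1360, 2708, 22.2 and 0 CPM, so the 2 ages did not overlap. Cells with many of these UMIs before thinning were also more deeply read in both postnatal libraries, which a cut on unthinned UMIs itself favours. In postnatal replicate 1, 10 cells with at least 10 of these UMIs had a median of 15800 UMIs, against 9021 in the 44 cells with none, and in postnatal replicate 2 the medians were 24875 in 6 cells and 12116 in 4. In replicate 1 Pdgfra stood at 1009 CPM in the 10 cells and 875 CPM in the 44, and Olig1 at 1447 and 2421 CPM. In postnatal replicate 2 the 6 cells with at least 10 of these UMIs held Pdgfra at 316 CPM, with a UMI in 4 of the 6, against 1048 CPM in the 4 cells with none. Olig1 stood there at 1545 and 1911 CPM, and C1ql1 had a UMI in 3 of the 6 cycling cells. The Pdgfra level was thus higher in the cycling cells of replicate 1 and lower in those of replicate 2.

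The promoters of 3 genes of the mitosis score are shown as examples that hold both elements searched, since genes of this class are known to share promoter elements. Promoters were taken from RefSeq on GRCm38.p6, from 250 bases before the start of the transcript to 50 bases after it, and read 5′ to 3′ on the strand of the gene. Capitals mark CCAAT, the box bound by NF-Y, and TTTGAA, the core of the CHR element of cell cycle genes, each searched on both strands (ATTGG and TTCAAA on the other). Cdk1, the kinase that drives entry into mitosis, lies on the minus strand with its promoter at chr10:69352863-69353162. Ccnb2, a B-type cyclin that partners Cdk1, has its promoter at chr9:70421505-70421804 on the minus strand. Top2a, the topoisomerase that untangles replicated chromosomes, has its promoter at chr11:99024140-99024439 on the minus strand.
Cdk1: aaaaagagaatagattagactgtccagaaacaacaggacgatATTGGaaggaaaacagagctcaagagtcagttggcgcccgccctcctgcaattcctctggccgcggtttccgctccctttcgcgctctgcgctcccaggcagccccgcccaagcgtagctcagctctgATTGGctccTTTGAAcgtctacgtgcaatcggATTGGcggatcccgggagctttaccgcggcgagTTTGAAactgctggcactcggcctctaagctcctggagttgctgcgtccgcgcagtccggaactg
Ccnb2: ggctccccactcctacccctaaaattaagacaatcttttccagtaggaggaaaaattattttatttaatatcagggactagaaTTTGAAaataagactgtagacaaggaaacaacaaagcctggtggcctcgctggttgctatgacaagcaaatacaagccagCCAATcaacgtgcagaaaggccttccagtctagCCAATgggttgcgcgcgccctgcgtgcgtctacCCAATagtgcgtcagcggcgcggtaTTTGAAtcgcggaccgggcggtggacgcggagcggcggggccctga
Top2a: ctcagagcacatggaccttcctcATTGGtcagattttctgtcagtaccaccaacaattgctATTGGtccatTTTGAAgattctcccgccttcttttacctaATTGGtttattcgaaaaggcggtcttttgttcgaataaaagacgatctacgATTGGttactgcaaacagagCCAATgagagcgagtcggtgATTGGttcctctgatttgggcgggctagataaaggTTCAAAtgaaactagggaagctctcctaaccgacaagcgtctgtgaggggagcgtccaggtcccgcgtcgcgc
The Cdk1 and Ccnb2 promoters each held 3 CCAAT and 2 TTTGAA matches, and that of Top2a held 6 and 2. Of the 10 mitotic genes 9 were found in the promoter table, and 7 of these 9 held CCAAT, 6 held TTTGAA and 6 held both. Over all 32851 promoters of the table the shares were 37.4%, 17.9% and 6.95%. The 3 promoters shown were chosen after their matches were seen, and a match of these letters is not a binding site by itself.

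**Figure D2:**
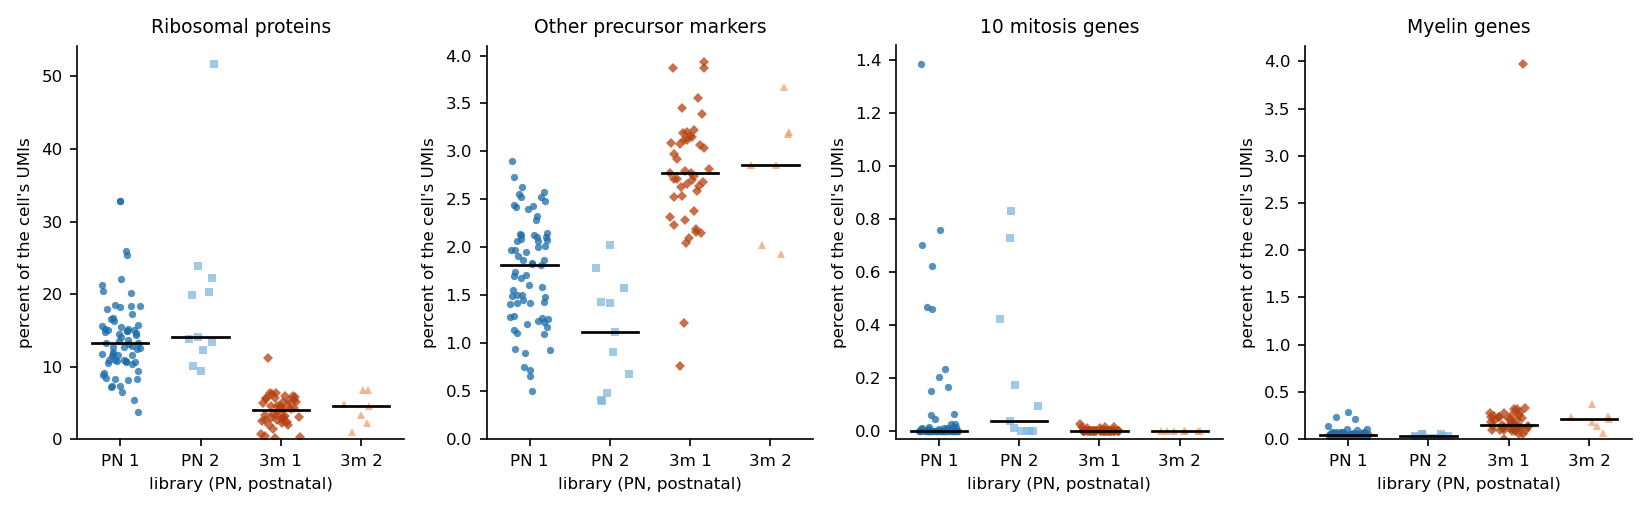
Single precursors of the 4 libraries, each point a cell, plotted by the percent of its UMIs from cytoplasmic ribosomal protein genes, 30 precursor markers, 10 mitotic genes and 17 myelin genes, with a line at the median. Ribosomal protein genes took a median of 13.2% and 14.1% of UMIs in the postnatal cells and 3.98% and 4.53% in the 3m cells, and 1 cell of 3m replicate 1 stands apart with 3.97% of its UMIs from myelin genes.

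The summed precursors of the 4 libraries were then compared gene by gene, with edgeR's quasi-likelihood test and Benjamini-Hochberg adjustment, as 3 months over postnatal. Of 5729 genes that passed the filter on low counts, 482 (8.41%) were called at an adjusted p of at most 0.05 and a change of at least 1 on the log2 scale, 190 (3.32%) higher and 292 (5.10%) lower at 3 months. The median change over all tested genes was -0.03 on the log2 scale. The calls in each list below are to be read against these shares of 3.32% higher and 5.10% lower. A gene that was low in both sums of 1 age passed the filter through the other age alone. Such calls are given no weight, and this is said where the gene is named. Without any scaling factor 387 genes were called, 199 higher and 188 lower, with a median change of 0.21, so the balance of directions depends on the scaling. The calls also rest on 3m replicate 1, without which 46 genes were called, while 828 to 1259 were called without 1 of the postnatal libraries. In sums of cells a lower level can come from fewer cells with a transcript or from less of it in each cell.

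Genes of S phase and mitosis made up the 15 leading falls apart from Egfr, in a ranking that leaves out markers of other cells and with them Sox9. All 15 were at 0 in both 3m sums and passed the filter through the postnatal precursors alone. Their rank and calls are given no weight, and their levels are given as a description. All 10 genes of the cycling score were tested and called lower, 7 of them with no UMI among the 362465 UMIs of the 3m precursors. Together the 10 held 22.2 and 0 CPM in the 3m sums. All 10 thus passed the filter through the postnatal precursors alone, and their calls are given no weight. As levels, all 10 lay lower in both 3m libraries than in either postnatal one (23.3% of all tested genes did). Top2a (chromosome 11, 98992943 to 99024189, minus strand, GRCm38) stood at 369, 737, 0 and 0 CPM, which is at least 55.5-fold lower at 3 months when the 3m group is set to the floor of 3 counts over the group. Hist1h1b, a linker histone made in S phase, stood at 482, 979, 0 and 0 CPM, at least 72.9-fold lower. Pclaf, which travels with the replication clamp, was at least 33.1-fold lower and Cenpf, a kinetochore protein, at least 27.8-fold lower. Mki67, the proliferation antigen, gave 180.5, 349, 3.17 and 0 CPM, a single UMI at 3 months and a ratio of 0.0124 (counting interval 0.000314 to 0.0701).

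Of the 25 genes of the broader cell cycle list 20 were tested, 13 were called lower and 0 higher. Of these 13, the 10 genes of the mitosis score passed the filter through the postnatal precursors alone, 7 of them at 0 in both 3m sums. Their calls are given no weight, and the other calls were Pcna, Mcm5 and Rrm2. The list had a median change of -4.59, or -3.43 with the genes at 0 set to their bound. Pcna, the replication clamp, stood at 99.2, 162, 25.4 and 42.1 CPM and fell by 2.36 ± 0.55 (SE, adjusted p = 0.0276). Ccnd1, the cyclin of the G1 phase, showed no such fall: its 547, 707, 1651 and 1243 CPM gave a change of 0.99 ± 0.37 (adjusted p = 0.128). Hist1h3c, Ube2c, Pbk, Cks2, Ckap2l and Cdca3, also genes of S phase and mitosis, were at 0 in both 3m sums and at least 9.94-fold to 23.8-fold lower. With every precursor left out that held a UMI of the mitosis score (25, 7, 6 and 0 cells) the genes of that score no longer passed the filter. Of the broader list 4 genes were then tested, 1 was called higher and 0 lower, with a median change of -0.55. In all 469 genes were called. Without 3m replicate 1, 3 genes of the mitosis score were called.

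Sox9 also had many molecules at the postnatal age and none at 3 months. It encodes a transcription factor of glial progenitors and astrocytes (chromosome 11, 112782224 to 112787760, plus strand). It stood at 230, 536, 0 and 0 CPM, that is 293 UMIs against 0, and had a UMI in 38 of 69, 10 of 11, 0 of 45 and 0 of 7 precursors. The 3m level was at least 36.9-fold lower. In astroglia Sox9 stayed at 902, 787, 655 and 618 CPM, so the 3m libraries did carry the transcript. Like every gene at 0 in both 3m sums, Sox9 passed the filter on low counts through the postnatal precursors alone and so had to differ, and its call is given no weight here.

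Egfr, the receptor for epidermal growth factor, gave 42.7, 170, 0 and 0 CPM, at least 8.93-fold lower, from 13 of 69 and 5 of 11 postnatal precursors. Egfr too passed the filter through the postnatal precursors alone, so its call is given no weight. Of 35 growth factor and signalling receptors 19 were tested, and it was the only one called, a share near the 5.10% of all tested genes called lower. The call was lost without a scaling factor, with DESeq2 and without 3m replicate 1. With precursors that carry astrocyte or neuron markers left out, Egfr no longer passed the count filter, and 3 of the 13 receptors tested were called higher and 0 lower. It was likewise untested with precursors holding mitotic UMIs left out, with at least 4 rule markers required and with no exclusion marker allowed. The other receptors were spread around a median of 0.45. Ntrk2, the receptor for the growth factor BDNF, stood at 200, 128, 502 and 400 CPM with a change of 1.25 ± 0.36 (adjusted p = 0.0557).

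**Figure D3:**
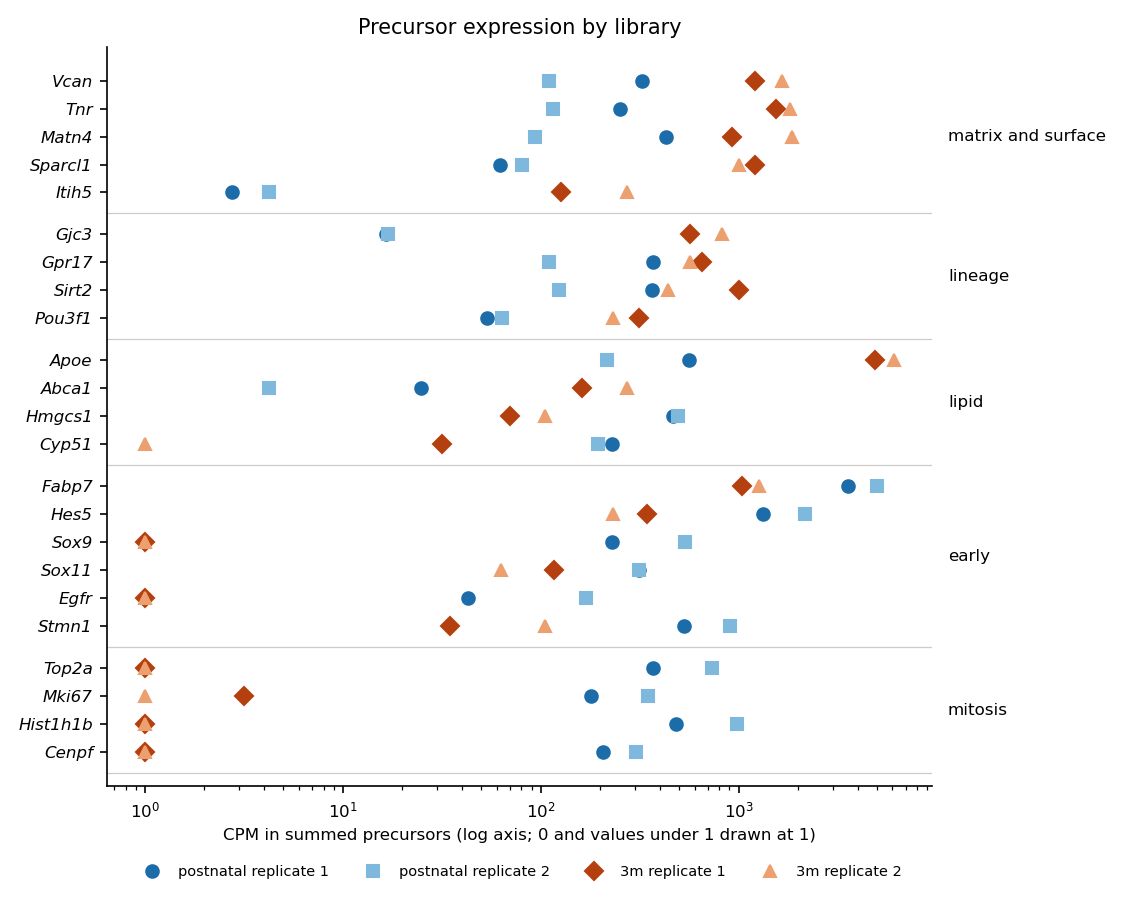
Levels in the summed precursors of each library, in CPM on a log axis, for 23 genes grouped by role, with 1 point for each library and levels of 0 drawn at 1. Top2a and Sox9 have no molecule in either 3m library, while Tnr, Vcan, Sparcl1, Apoe and Gjc3 lie higher in both 3m libraries than in either postnatal one.

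Of 30 precursor markers outside the rule all 30 were tested, 8 were called higher, 0 lower and 22 were not called, with a median change of 0.96. Vcan, the large chondroitin sulphate proteoglycan versican (chromosome 13, 89655312 to 89742509, minus strand), stood at 324, 111, 1216 and 1664 CPM and rose by 2.46 ± 0.46 (adjusted p = 0.0109). Tnr, the matrix glycoprotein tenascin-R, stood at 251, 115, 1546 and 1812 CPM and rose by 2.94 ± 0.41 (adjusted p = 0.00538). Both had non-overlapping levels, with the 3m libraries close together and the postnatal ones further apart. In all, 23 of the 30 markers lay higher in both 3m libraries than in either postnatal one, against 36.0% of all tested genes. Susd5 stood at 8.27, 0, 152 and 147 CPM and rose by 4.39 ± 0.63 (adjusted p = 0.00538). It passed the filter on low counts through the 3m precursors alone, so its call is given no weight. The other 5 called markers were Matn4, Chst11, Megf11, Xylt1 and Epn2, with changes from 2.11 down to 1.32. Of these Chst11 and Xylt1 are enzymes that build chondroitin sulphate chains.

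The commonest markers changed less. Ptprz1, the receptor phosphatase that is itself a proteoglycan, stood at 2896, 2235, 4092 and 5162 CPM (change 0.61 ± 0.35, adjusted p = 0.31), and Olig1 had a change of 0.70 ± 0.34 (adjusted p = 0.241). The number of called markers moved with the libraries: 20 of 30 were higher without postnatal replicate 1, 2 of 28 without 3m replicate 1, and 3 of 30 with DESeq2.

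Of 49 matrix and adhesion genes 35 were tested, 12 were called higher, 0 lower and 23 were not called, with a median change of 1.08, and the list shares Vcan, Tnr and Matn4 with the marker list. Sparcl1, a secreted matrix protein that promotes synapse formation, stood at 62.0, 80.9, 1206 and 1011 CPM and rose by 3.77 ± 0.40 (adjusted p = 0.00327). Its level in oligodendrocytes of the 3m libraries was 232 and 107 CPM and in astroglia 3469 and 4194 CPM. Hapln1, the link protein that fastens proteoglycans to hyaluronan, stood at 5.51, 0, 60.3 and 211 CPM and rose by 4.32 ± 0.85 (adjusted p = 0.013), a call that was lost without 3m replicate 2. Hapln1 passed the filter on low counts through the 3m precursors alone, so that call is given no weight. Astroglia held Hapln1 at 196, 49.1, 203 and 228 CPM. Nrxn2, a presynaptic adhesion gene, stood at 220, 76.6, 737 and 1096 CPM and rose by 2.32 ± 0.46 (adjusted p = 0.0131). Chl1, Nrcam, Lrrtm3, Itgav and Timp3 rose by 1.34 to 1.66. Without 3m replicate 1, 4 genes of the list were called.

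Myelin genes took a larger share of precursor UMIs in both 3m libraries than in either postnatal one, and in 3m replicate 1 a single cell held many of the molecules. Of 17 myelin genes 8 were tested, 5 were called higher (Ptgds, Gjc3 and Mbp among them) and 0 lower, with a median change of 3.84. Gjc3, Mbp and Cldn11, also among the 5, passed the filter on low counts through the 3m precursors alone. Their calls are given no weight. The 17 genes took 0.0451% and 0.0281% of postnatal precursor UMIs and 0.377% and 0.211% of 3m precursor UMIs, against 7.96% and 8.35% in the oligodendrocytes of the same 3m libraries. The median precursor had 0.0403%, 0.0299%, 0.149% and 0.214% of its UMIs from them, and the median astroglial cell 0.0543%, 0.0257%, 0.0939% and 0.0990%. In 3m replicate 2, which lacks such a cell, the highest precursor had 0.370%. Mbp, myelin basic protein, gave 28.9, 17.0, 314 and 84.3 CPM, but 76 of its 99 UMIs in 3m replicate 1 came from 1 cell. The same cell held 186 of 265 UMIs of Ptgds and all 43 of Mag. Mbp also had a UMI in 35.7% and 48.2% of astroglia in the 3m libraries, against 35.6% and 28.6% of precursors, so its share of cells lay at the background there. Without that cell 7 myelin genes were tested, 3 were called higher and the median change was 1.45. Of the 7 genes tested without 3m replicate 1, 2 were called higher, with a median of 1.53, and of the 10 tested without postnatal replicate 1, 8 were. The Mbp age change was 3.06 ± 0.53 with that cell (adjusted p = 0.00838) and 1.45 ± 0.49 without it (adjusted p = 0.0871).

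Gjc3 was different, as it was found in most 3m precursors. It encodes a connexin of the oligodendrocyte lineage (chromosome 5, 137953461 to 137963098, minus strand) and had a UMI in 42 of 45 and 6 of 7 precursors at 3 months, against 9 of 69 and 3 of 11 at the postnatal age. Its level was 16.5, 17.0, 571 and 822 CPM, a rise of 5.10 ± 0.44 (adjusted p = 0.00117). Gjc3 passed the filter on low counts through the 3m precursors alone, so its call is given no weight and the levels are a description. In the astroglia of the 3m libraries 2.19% and 2.82% of cells had a UMI, and in the oligodendrocytes its level was 622 and 659 CPM. The precursors thus held Gjc3 at about the level of the oligodendrocytes while their myelin share was far below.

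**Figure D4:**
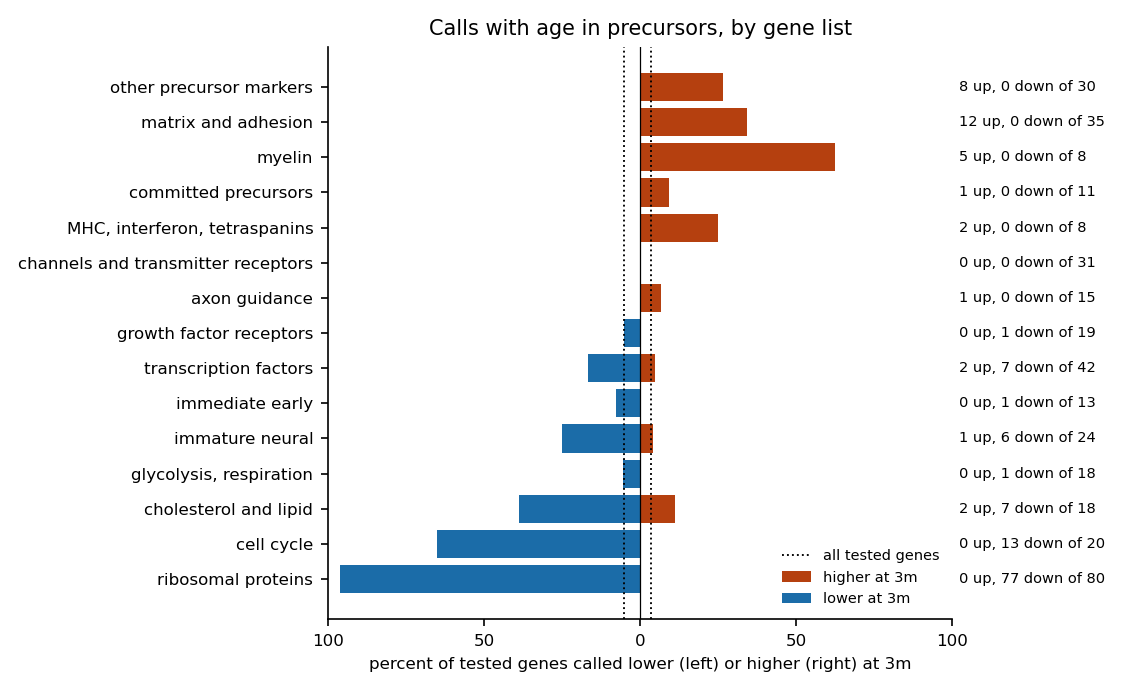
Percent of the tested genes of each list that were called higher (bars to the right) or lower (bars to the left) in 3m precursors, with the counts at the side and dotted lines at the share over all tested genes (3.32% higher, 5.10% lower). The longest bars are those of ribosomal protein genes (77 of 80 lower), cell cycle genes (13 of 20 lower) and myelin genes (5 of 8 higher). Of the 13 cell cycle genes 10 passed the count filter through the postnatal precursors alone, 7 of them at 0 in both 3m sums. Of the myelin genes Gjc3, Mbp and Cldn11 passed it through the 3m precursors alone. Channels and transmitter receptors have none of 31, though 25 of the 31 lay higher in both 3m libraries than in either postnatal one.

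Genes of the committed stage were present at both ages. Of 20 genes 11 were tested, and 1, the adhesion molecule Nfasc, was called higher (26.2, 17.0, 140 and 63.2 CPM, 2.16 ± 0.51, adjusted p = 0.0276). Nfasc passed the filter on low counts through the 3m precursors alone, so its call is given no weight. That call was also lost without the cell with oligodendrocyte markers, with DESeq2 and without 3m replicate 1. The list had 6 of 14 genes called higher without postnatal replicate 1, 3 of 15 without postnatal replicate 2, 3 of 15 without 3m replicate 2 and 3 of 10 with precursors holding mitotic UMIs left out. Gpr17, the receptor that marks committed precursors, stood at 369, 111, 654 and 569 CPM (change 1.12 ± 0.47, adjusted p = 0.169) and had a UMI in 53 of 69, 6 of 11, 39 of 45 and 6 of 7 precursors, against at most 0.313% of astroglia. Precursors with at least 2 of 6 committed genes (Gpr17, Bmp4, Enpp6, Bcas1, Itpr2 and Tcf7l2) after thinning made up 45.2% and 18.2% at the postnatal age and 52.3% and 50% at 3 months. The difference was 19.5 percentage points (exact permutation p = 0.33), 33.0 without postnatal replicate 1, 5.98 without postnatal replicate 2 and 6.92 without thinning, and the 4 intervals overlapped. The same share was 1.68% to 6.83% in astroglia and 14.2% and 15% in oligodendrocytes.

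Among 58 transcription factors and chromatin genes 42 were tested, 2 were called higher and 7 lower, with a median change of -0.01. Over all tested genes 3.32% were called higher and 5.10% lower, so the count of higher calls is near that share. Hes5, an effector of Notch signalling that holds progenitors undifferentiated, stood at 1326, 2176, 343 and 232 CPM and fell by 2.78 ± 0.44 (adjusted p = 0.00733). The chromatin proteins Hmgb2 (520, 1384, 66.7 and 105 CPM) and Hmgb3 (413, 396, 73.0 and 21.1 CPM) fell by 3.88 ± 0.61 and 2.92 ± 0.44 (adjusted p = 0.00707 and 0.00654), and the call of Hmgb2 was lost when precursors with mitotic UMIs were left out. Hmgb1, Sox11 and Ezh2 were also called lower, and the last of the 7 was Sox9, whose call the filter forced. Pou3f1, a POU domain factor known from myelinating glia, stood at 53.7, 63.9, 314 and 232 CPM and rose by 2.10 ± 0.37 (adjusted p = 0.00838), and Id2, an inhibitor of helix-loop-helix factors, rose by 1.97 ± 0.37 (adjusted p = 0.0112). Without 3m replicate 1, 0 genes of the list were called higher and 2 lower, with the calls of Hes5, Hmgb2, Pou3f1 and Id2 among those lost, and with DESeq2 0 of 46 genes of the list were called higher, so those of Pou3f1 and Id2 were lost there too. The call of Id2 was also lost with precursors holding mitotic UMIs left out and with precursors carrying astrocyte or neuron markers left out.

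Genes of immature neural cells were lower or were not called, with 1 exception. Of 29 genes 24 were tested, 6 were called lower and 1, the long non-coding RNA Meg3, higher, with a median change of -0.54. Fabp7, the fatty acid binding protein of radial glia and early precursors, stood at 3588, 5024, 1048 and 1264 CPM and fell by 2.16 ± 0.39 (adjusted p = 0.00947). Stmn1, which destabilises microtubules, stood at 533, 911, 34.9 and 105 CPM and fell by 4.06 ± 0.58 (adjusted p = 0.00538). Cd24a fell from 66.1 and 89.4 CPM to 3.17 and 0 CPM, and Sox11, Tubb2b and Gap43 by 1.82, 1.60 and 1.84. Cd24a passed the filter on low counts through the postnatal precursors alone, so its call is given no weight. Marcks and Basp1, substrates of protein kinase C at the membrane, were not called, at 1491, 1320, 2438 and 2718 CPM and at 1102, 1035, 733 and 927 CPM. Without 3m replicate 1 no gene of the list was called by edgeR.

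Several enzymes of cholesterol synthesis were lower at 3 months while 2 genes of cholesterol transport were higher. Of 27 genes 18 were tested, 7 were called lower (Sqle, Hmgcs1 and Cyp51 among them) and 2 higher (Apoe and Abca1), with a median change of -1.67. Hmgcs1, an early enzyme of the pathway, stood at 464, 494, 69.8 and 105 CPM and fell by 2.82 ± 0.41 (adjusted p = 0.00538). Cyp51, a demethylase late in the pathway, stood at 229, 196, 31.7 and 0 CPM and fell by 3.2 ± 0.51 (adjusted p = 0.00733). Cyp51 passed the filter on low counts through the postnatal precursors alone, so its call is given no weight. Without a scaling factor 3 genes of the list were called lower, and without 3m replicate 1 also 3.

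Apoe, the main lipid carrier of the brain (chromosome 7, 19696109 to 19699188, minus strand), stood at 564, 217, 4883 and 6110 CPM, a mean of 390 ± 245 and 5496 ± 868 (SD, n = 2), and rose by 3.58 ± 0.47 (adjusted p = 0.00538). Astroglia held it at 11324, 6955, 20949 and 26722 CPM, and oligodendrocytes at 2702 and 2000 CPM. Abca1, which loads cholesterol onto such carriers, stood at 24.8, 4.26, 162 and 274 CPM and rose by 3.22 ± 0.56 (adjusted p = 0.00838). Abca1 passed the filter on low counts through the 3m precursors alone, so its call is given no weight.

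Other astrocyte genes rose with Apoe. Of a second list of 16 astrocyte genes 14 were tested, 6 were called higher (Apoe, S100b, Clu, Slc1a2, Mt2 and Atp1b2) and 2 lower (Fabp7, and Sox9, whose call the filter forced). Slc1a2, the glutamate transporter, stood at 130, 123, 625 and 653 CPM in precursors and at 2367, 1030, 5153 and 5528 CPM in astroglia, and its changes in the 2 classes differed by 0.00 ± 0.30. Oligodendrocytes of the 3m libraries held it at 376 and 155 CPM. S100b, also a gene of oligodendrocyte precursors, stood at 156, 42.6, 775 and 716 CPM and rose by 2.61 ± 0.48 (adjusted p = 0.0101), and oligodendrocytes held it at 723 and 844 CPM. The part of astrocyte RNA in these rises was not tested.

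Genes of the cytoplasmic ribosome fell as a body. Of 83 ribosomal protein genes 80 were tested, 77 were called lower and 0 higher, with a median change of -2.37. They took 14.1% and 19.5% of precursor UMIs at the postnatal age and 4.07% and 3.85% at 3 months. The cell medians were 13.2%, 14.1%, 3.98% and 4.53%, with single cells from 3.79% to 51.7% at the postnatal age and from 0.114% to 11.2% at 3 months. In astroglia the sums were 8.15%, 12.7%, 4.32% and 3.38%, and in oligodendrocytes 5.39% and 5.35%, so at 3 months the precursors lay beside the other classes. Without 3m replicate 1 the median was -2.54 and 4 genes were called, and without a scaling factor 73 were called. The 13 mitochondrially encoded genes had a median change of 0.06, with none called by edgeR.

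Of 22 genes of glycolysis and respiration 18 were tested and 1, the electron carrier Cycs, was called lower (303, 319, 127 and 147 CPM, -1.45 ± 0.36, adjusted p = 0.0341). The respiratory subunits Cox7c and Cox6c had changes of -1.20 ± 0.35 and -1.17 ± 0.34 (adjusted p = 0.062 and 0.0632). The share called is near the 5.10% of all tested genes called lower. The list had a median change of -0.91. The call of Cycs was lost without a scaling factor, with DESeq2, without either 3m replicate and without precursors carrying astrocyte or neuron markers. The list had 9 and 8 genes called lower without postnatal replicate 1 and 2, and 7 with precursors holding mitotic UMIs left out.

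Ion channels and transmitter receptors are the means by which precursors sense neuronal activity. Of 59 such genes 31 were tested, 0 were called by edgeR in either direction, and the median change was 0.86. Still, 25 of the 31 lay higher in both 3m libraries than in either postnatal one and 0 lower, against 36.0% and 23.3% of all tested genes. The 0 calls therefore do not show unchanged levels. The number of calls moved with the libraries left out. The median change was 1.32 without postnatal replicate 1 and 0.54 without postnatal replicate 2. With all 4 libraries, edgeR called 4 of 23 higher with precursors holding mitotic UMIs left out and 3 of 26 with precursors carrying any exclusion marker left out. Gria2, the AMPA receptor subunit, stood at 1086, 703, 1441 and 1327 CPM (change 0.41 ± 0.35, adjusted p = 0.511), and its auxiliary subunit Cacng4 at 486, 264, 835 and 885 CPM (0.96 ± 0.37, adjusted p = 0.135). Grm5, a metabotropic glutamate receptor, stood at 165, 200, 292 and 274 CPM (0.43 ± 0.34, adjusted p = 0.476). Of 38 guidance genes 15 were tested and 1, the guidance cue Ntn1, was called higher (26.2, 17.0, 92.1 and 105 CPM, 1.84 ± 0.48, adjusted p = 0.0398). Over all tested genes 3.32% were called higher. Ntn1 passed the filter on low counts through the 3m precursors alone, so its call is given no weight. The Ntn1 call was lost with DESeq2, without a count filter beyond 1 and without either 3m replicate, and without postnatal replicate 1 the count was 5 of 17.

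Of 22 genes of antigen presentation, interferon response and tetraspanins 8 were tested and 2 were called higher, against 3.32% of all tested genes. Serpina3n, a protease inhibitor known from reactive glia, gave 2.76, 0, 38.1 and 42.1 CPM, a pooled ratio of 18.6 (counting interval 4.26 to 168). It passed the filter on low counts through the 3m precursors alone, so its call is given no weight. Cd81, a tetraspanin, gave 642, 302, 1902 and 1812 CPM and rose by 1.75 ± 0.40 (adjusted p = 0.0236). Without 3m replicate 1, 0 of 8 genes tested were called by edgeR, and with DESeq2 1 of 8 was. Among 19 immediate early genes, which also respond to dissociation of the tissue, 13 were tested. Against 5.10% of all tested genes, 1 of them was called lower, Egr1, at 310, 975, 63.5 and 190 CPM (-2.96 ± 0.70, adjusted p = 0.0276). That call was lost without a scaling factor, with DESeq2 and without 3m replicate 1, and without postnatal replicate 1 the count was 8 of 15. Their summed share was 0.271%, 0.723%, 0.273% and 0.504% of precursor UMIs, so replicate 2 was the higher library at both ages.

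Several leading rises fell outside the lists. Gpld1, a phospholipase that cuts lipid anchors, gave 2.76, 0, 165 and 169 CPM, that is 2 UMIs against 60, a pooled ratio of 79.5 (counting interval 21.1 to 672). Itih5, a hyaluronan-binding protein of the matrix, gave 2.76, 4.26, 127 and 274 CPM, a ratio of 46.8 (15.2 to 234). Astroglia of the 3m libraries held Gpld1 at 177 and 205 CPM, as high as the precursors, and Itih5 at 90.7 and 79.1 CPM. Faim2, an inhibitor of Fas-mediated death, stood at 8.27, 0, 152 and 147 CPM, and the integrin Itga9 at 15.2, 0, 101.6 and 337 CPM. These were low in astroglia of the 3m libraries, at 8.79 and 7.68 CPM and at 1.20 and 0 CPM. In oligodendrocytes of those libraries Faim2 stood at 126 and 132 CPM, near its level in the precursors. Gpld1, Itih5, Faim2 and Itga9 passed the filter on low counts through the 3m precursors alone, so their calls are given no weight. Vegfa, the vascular growth factor, gave 42.7, 12.8, 248 and 569 CPM and rose by 3.26 on the log2 scale. Astroglia held it at 182, 82.4, 346 and 439.7 CPM. Gpd1, Ptgfrn, 1700047M11Rik, Epas1 and Gng11 completed the 15 leading rises, with changes of 3.81 to 2.93. They too passed the filter through the 3m precursors alone, and their calls are given no weight. The calls of 1700047M11Rik, Epas1, Gng11 and Gpd1 were lost without 3m replicate 1, and that of Ptgfrn without 3m replicate 2 or postnatal replicate 1.

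The age changes of precursors were set against those of astroglia from the same libraries, in 1 model with the library as a block. Of 11846 genes tested 690 (5.82%) had a change that differed, 282 (2.38%) higher in precursors and 408 (3.44%) lower, and the median difference was -0.15. Without a scaling factor 662 of 787 called genes were higher in precursors and the median difference was 0.45. Of the 30 precursor markers 16 differed upward and 2 downward (19 and 0 without a scaling factor, 11 and 0 with DESeq2, 9 and 2 with precursors holding mitotic UMIs left out), and the astroglia levels of several went down. Vcan went from 97.2 and 228 CPM to 13.2 and 17.3 CPM in astroglia while it rose in precursors, a difference of 5.29 ± 0.39 (adjusted p = 1.90e-38). Ptprz1, which was not called in precursors, went from 4908 and 6852 CPM to 1279 and 1706 CPM in astroglia, a difference of 2.13 ± 0.29 (adjusted p = 6.72e-11), and Olig1 had a difference of 2.68 ± 0.32 (adjusted p = 2.33e-14).

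The genes with the most positive differences were at or near 0 in the astroglia of the 3m libraries. Nxph1, a secreted glycoprotein, stood at 256, 85.1, 537 and 674 CPM in precursors and at 5.43, 18.6, 0.4 and 0 CPM in astroglia, a difference of 6.68 ± 0.78 (adjusted p = 6.54e-15). Opcml, a membrane-anchored adhesion molecule, stood at 296, 234, 632 and 506 CPM in precursors and at 20.7, 21.1, 0.799 and 0 CPM in astroglia, a difference of 6.0 ± 0.66. Pianp, Tenm1 and Adarb2 were at 0 in the astroglia of both 3m libraries, so their fitted differences are no measure of size. Marcks and Fos also had positive differences while still measured in astroglia at 3 months. Marcks went in astroglia from 1371 and 1651 CPM to 147 and 122 CPM (difference 3.66 ± 0.32, adjusted p = 7.23e-27), and Fos from 2449 and 1536 CPM to 123 and 11.1 CPM while precursors held 661, 1924, 444 and 1138 CPM (difference 3.87 ± 0.36, adjusted p = 7.64e-23, though not called with DESeq2).

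In the other direction the largest counts were 74 of 80 ribosomal protein genes, 11 of 22 genes of glycolysis and respiration and 10 of 13 mitochondrially encoded genes. Of 25 cell cycle genes 4 were called so, and 3.44% of all tested genes. Without a scaling factor 125 genes in all were called lower in precursors. Also in this direction stood Sox9, Egfr and genes of the cell cycle such as Top2a, which were at 0 in the 3m precursors and present in 3m astroglia. Egfr was at 175, 162, 98.3 and 78.7 CPM in astroglia, and Top2a at 99.3, 248, 5.59 and 58.0 CPM. With precursors at 0 at 3 months, the fitted differences of these genes are no measure of size, and their calls are given no weight. For Fabp7 the classes fell by different amounts: astroglia went from 11236 and 16565 CPM to 348 and 399 CPM, while precursors kept 1048 and 1264 CPM, a difference of 2.62 ± 0.29 (adjusted p = 2.05e-16). Apoe rose more in precursors than in astroglia, by 1.82 ± 0.27 (adjusted p = 7.46e-09), from a far lower start.

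**Figure D5:**
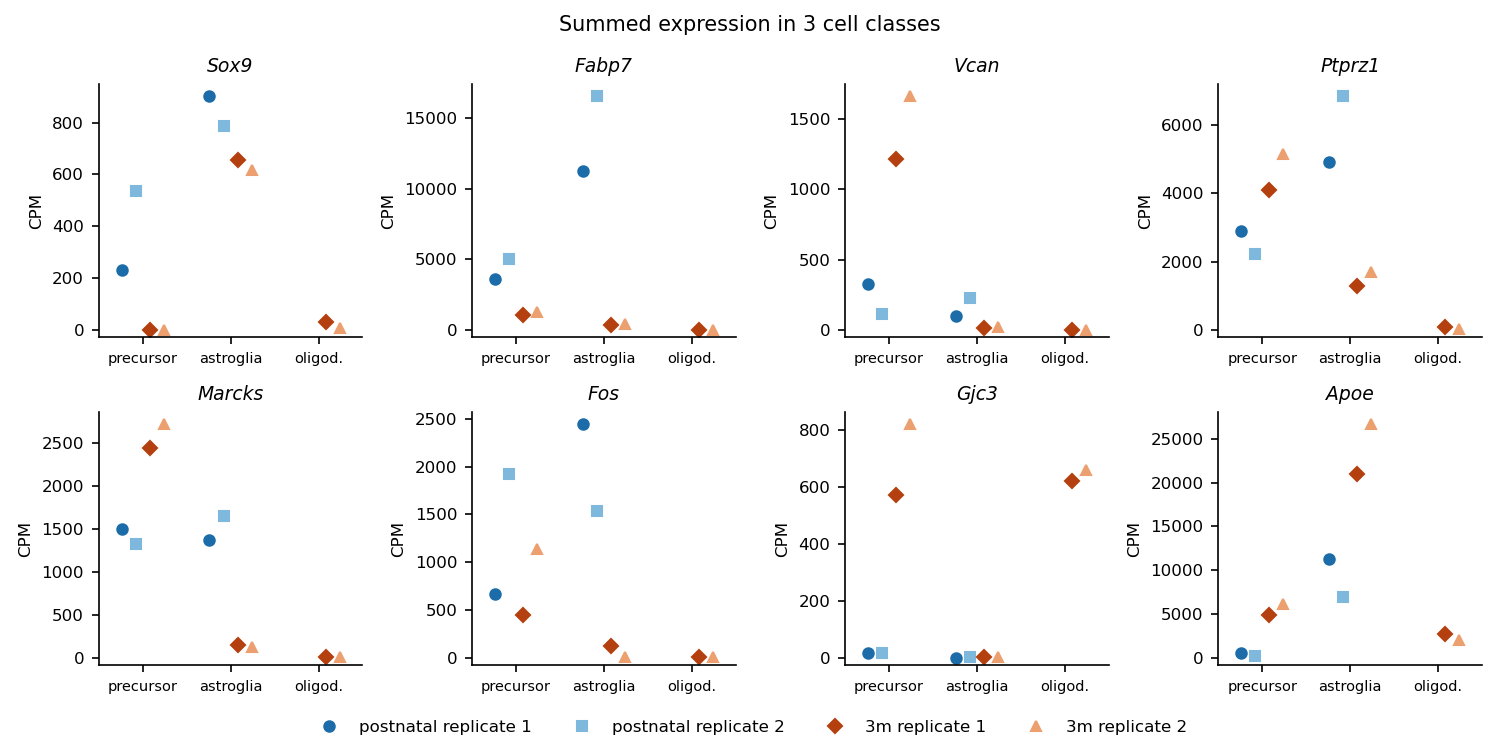
Levels of 8 genes in CPM, on linear axes, in the summed precursors, astroglia and oligodendrocytes, with 1 point for each library (oligodendrocytes in the 3m libraries only). At 3 months Sox9 is at 0 in precursors and at 655 and 618 CPM in astroglia, and Gjc3 is at 571 and 822 CPM in precursors, beside 622 and 659 CPM in oligodendrocytes.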

How the data were processed

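Single-cell libraries from ACSA2-enriched striatal cells were made with the 10x 3′ kit, mapped to mm10 and counted with Cell Ranger, with Seurat 3.1.1 also named in the submitters' processing notes. The deposited file is 1 table of raw UMI counts, which the authors merged over the sequencing runs of each library (31053 genes, 4245 barcodes). Cells with over 500 genes and under 10% mitochondrial counts were kept, and of barcodes shared by postnatal replicate 2 and 3m replicate 2 the copy with fewer UMIs was left out, while the 1 or 2 shared by each of 3 other pairs of libraries were kept. Astroglia had at least 4 of 6 astrocyte markers, oligodendrocytes at least 4 of 6 oligodendrocyte markers, and both under 3 rule genes. Counts were summed per library and class and tested with edgeR 4.0.16 (quasi-likelihood F test, TMM scaling, filterByExpr), with calls at a p of 0.05 or less after Benjamini-Hochberg adjustment and a log2 change of 1 or more in size. SE is the log2 change over the root of F. DESeq2 1.42.0 was an alternative. Scripts were tested on simulated data. Leading genes were the 15 rises and 15 falls with the largest change among called genes with non-overlapping CPM, at least 100 CPM in the higher group and at least 5 UMIs in each of its sums, outside the rule and the marker lists of other cells, and the 5 largest differences each way by the same limits. From each list the called genes and the 4 most abundant could be named, and a few genes of the lists are not reported here. The precursor rule and the gene lists were chosen with earlier results of these data known. Coordinates are those of GENCODE M21 on GRCm38. The study's methods, which may not describe these libraries in every detail, name preparations of pooled brains and no single animals, so p-values measure only the spread between 2 libraries per age. Counts, depth and precision are given per library in the text. Reads from near-identical histone genes, and from overlapping genes, may be split by the counting.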

Additional observations from a re-analysis of the deposited data

Results flagged for a closer look

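The 10 leading genes of the test of the difference between the age changes of precursors and of astroglia are listed here. Higher in precursors were Pianp (7.10 on the log2 scale), Tenm1 (6.68), Nxph1 (6.68), Adarb2 (6.16) and Opcml (6.0), with astroglia at 0 or near 0 at 3 months. The call for Adarb2 was close to its threshold (adjusted p = 0.0493) and was lost in most alternatives, and that for Tenm1 was lost with DESeq2 and without postnatal replicate 2 or 3m replicate 1. The call for Pianp was lost without postnatal replicate 1 or 3m replicate 1, that for Egfr without 3m replicate 1, and that for Hist1h1b without precursors holding mitotic UMIs. Lower in precursors were Pclaf (-10.96), Egfr (-9.90), Top2a (-9.82), Hist1h1b (-9.45) and Cenpf (-9.10), with precursors at 0 at 3 months, so the calls of these genes are given no weight. Where a class was at 0 at 1 age, the fitted value depends on the prior count of the fit and is no measure of size.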

How the results depend on the processing

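The number of genes changed with age in precursors (482) was 282 with DESeq2, 797 with no filter beyond 1 count, and 46 to 1259 when 1 library was left out, the lowest without 3m replicate 1 and the others being 494 without 3m replicate 2, 828 without postnatal replicate 2 and 1259 without postnatal replicate 1. When an arm held 1 library, its spread was taken from the other group. With the replicate number as a block (replicate block) 258 genes were called. The numbers are only names (correlation of same-numbered deviations -0.01 over 5729 genes, 2 pairs), so this fit pairs no animals, and the difference from astroglia was fitted with the library as a block throughout. The share of higher calls was 39.4% and became 51.4% without a scaling factor, 20.2% with DESeq2, 29.5% with no filter and 28.6% with at least 10 counts in 2 sums. The number of genes whose change differed from astroglia (690) was 302 with DESeq2, 365 without precursors that held astrocyte or neuron markers, 386 without precursors holding a mitotic UMI and 359 to 509 with 1 library left out. Leaving out those with a mitotic UMI (469 with age), the precursor with oligodendrocyte markers (544 genes with age) or the ribosomal protein and mitochondrial genes (355 with age, 481 for the difference) was chosen after seeing the data. The difference in precursor share reversed without postnatal replicate 1 (0.974 percentage points, range over the libraries left out -9.94 to 0.974). The shares of cycling and of committed precursors kept their direction in every alternative tried. Of 3013 alternative values for 156 named gene results 2737 stayed on the same side of the threshold, 221 lost it, 55 gained it and 0 changed sign. Cenpf, Pclaf and Top2a gave no difference without precursors holding mitotic UMIs, since precursors were then at 0 at both ages. The cause of these changes was not tested. The 47465 UMIs of 3m replicate 2 limit what can be detected in that library.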

Other observations

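Precursors of postnatal replicate 2 stood apart from those of postnatal replicate 1 in several measures of the same cells. They held Neu4 in 0 of 11 cells against 28 of 69, Sox9 in 10 of 11 against 38 of 69, Egfr in 5 of 11 against 13 of 69, and Gpr17 in 6 of 11 against 53 of 69. Slc1a3, the astrocyte glutamate transporter, lay at 362 CPM in replicate 2 and 51.0 CPM in replicate 1, and 5 of 11 against 7 of 69 precursors had several astrocyte or neuron markers. The labels give these libraries different days, in conflicting order, so age and preparation cannot be told apart.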
